A study of Mus musculus with 11 samples.

Results

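The core genes of corticosteroid synthesis in the mouse adrenal gland, which carry out the steps from cholesterol to hormone or feed them electrons, were 10 in number: Star, Cyp11a1, Hsd3b1, Hsd3b6, Cyp21a1, Cyp11b1, Cyp11b2, Fdx1, Fdxr and Por. They were taken by symbol from 49671 genes in the count table, and all 10 were found and were among the 20893 genes tested. RNA was sequenced from small tubes of sorted adrenal cells of 6 male mice of the strain Nes-GFP, in which green fluorescent protein (GFP) reports Nestin, whose filament protein is found in many progenitor cells, those of the nervous system among them. Cortex and medulla were separated by hand, each was pooled in 3 groups of 2 mice, and 180 to 300 cells went into a tube.

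The groups were GFP-positive cells of the cortex (n = 3), GFP-negative cells of the cortex (n = 3), GFP-positive cells of the medulla (n = 3) and GFP-negative cells of the medulla (n = 2). All mice carried the reporter, were untreated, and were about 3.5 or 2.5 months old. Library 3 of each cortical gate was from younger mice, and the other cortical libraries were from older ones. Medullary GFP-positive libraries 2 and 3 were also from younger mice, whereas the remaining medullary libraries were all from older ones, so age and gate are partly confounded in that tissue. Total counts per library lay between 18500690 and 29204212. The labels tie no library to a pool, so the libraries of a gate and those of the other gate may share mice, and p-values measure the spread between these libraries, which may in part be technical. The comparison between gates asks how the cells that report Nestin differ from the others of the same tissue.

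The adrenal cortex makes steroids from cholesterol in concentric zones. The outer zona glomerulosa makes aldosterone, under angiotensin II and potassium, and the zona fasciculata beneath it makes corticosterone, under the pituitary hormone ACTH. The StAR protein moves cholesterol to the inner mitochondrial membrane, the mitochondrial enzyme P450scc cleaves its side chain, and the product passes to enzymes of the endoplasmic reticulum and back to the mitochondria for the last steps. Mitochondrial P450 enzymes receive electrons from NADPH through ferredoxin reductase and ferredoxin, and those of the endoplasmic reticulum receive them through P450 oxidoreductase. In the mouse, Cyp11b2 (aldosterone synthase) and Hsd3b6 mark the zona glomerulosa, Cyp11b1 (11-beta-hydroxylase) marks the zona fasciculata, and the other genes are used by both.

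Several of the 10 genes have close relatives, and this bears on how their reads could be assigned. The coding sequences of Cyp11b1 and Cyp11b2, which lie 9366 bases apart on the minus strand of chromosome 15, were 87.1% identical over 1503 aligned bases. Those of Hsd3b1 and Hsd3b6, 37750 bases apart on the minus strand of chromosome 3, were 90.0% identical over 1119 aligned bases. The first 90 coding bases of each, from the GENCODE transcripts on GRCm38 (mm10), are shown because they let the reader see how few positions tell each pair apart, and capitals mark the bases at which the members of a pair differ. They are chr15:74841523-74841612 for Cyp11b1, chr15:74856142-74856231 for Cyp11b2, chr3:98857875-98857964 for Hsd3b1 and chr3:98810957-98811046 for Hsd3b6.
Cyp11b1: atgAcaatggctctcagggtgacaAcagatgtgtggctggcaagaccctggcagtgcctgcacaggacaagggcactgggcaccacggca
Cyp11b2: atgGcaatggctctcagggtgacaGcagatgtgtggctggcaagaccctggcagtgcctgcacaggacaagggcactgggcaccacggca
Hsd3b1: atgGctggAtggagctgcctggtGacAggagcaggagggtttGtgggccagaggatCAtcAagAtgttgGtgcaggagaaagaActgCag
Hsd3b6: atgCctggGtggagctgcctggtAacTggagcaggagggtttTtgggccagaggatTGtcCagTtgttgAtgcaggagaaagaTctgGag

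The first pair differs at 2 of these 90 bases and the second at 12. Over the whole coding sequence, 194 bases told Cyp11b1 from Cyp11b2, and 112 told Hsd3b1 from Hsd3b6. Of all stretches of 50 bases in the annotated transcripts, 19.1% of those of Cyp11b2 and 18.1% of those of Cyp11b1 were also found in another gene, mostly each other. The share was 15.7% for Hsd3b6, which shares with Hsd3b2, Hsd3b3 and Hsd3b1, and 4.86% for Hsd3b1. Cyp21a1 shared 23.8% with the pseudogenes Cyp21a2-ps and Tnxa, Cyp11a1 shared 2.06%, chiefly with the overlapping noncoding gene Gm17322, and Star, Fdx1, Fdxr and Por shared 0. Read length is not given in the sources used here, so counts of the paralogs are uncertain to the extent that reads fell in such stretches. The library kit does not mark strand, so reads of Cyp11b1, Cyp21a1 and Por cannot be told apart from those of the genes Gml2, Tnxa, Gm43091 and Gm16061, which overlap them on the other strand.

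In the cortex, the 10 genes took a larger part of the RNA of cells in the GFP-positive gate. Together they held 6.65% ± 0.366 of all counts in cortical GFP-positive libraries and 4.01% ± 0.223 in cortical GFP-negative libraries (SD, n = 3 each). They held 3.29% ± 0.908 in medullary GFP-positive libraries (SD, n = 3) and 1.24% ± 0.464 in medullary GFP-negative libraries (SD, n = 2). The cortical groups did not overlap, and the difference of 2.65 percentage points had an exact two-sided permutation p of 0.1, the smallest that 3 against 3 libraries allow. Mitochondrial genes took 10.6 to 16.7% of the counts in cortical GFP-positive against 7.03 to 7.30% in cortical GFP-negative libraries, and 9.61 to 15.2% in medullary GFP-positive against 4.08 to 5.14% in medullary GFP-negative libraries, without overlap in either tissue. With mitochondrial counts left out of the totals, the cortical difference in share was 3.37 percentage points. The part of the mitochondrial share in the other results was not tested. In bulk samples such as these, fewer cells of a type and less RNA per cell cannot be told apart.

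Markers checked the tissue labels. Summed chromaffin markers (11 genes) lay between 13.8 and 178 CPM (counts scaled by library size) in cortical GFP-positive and between 1.14 and 5.30 CPM in cortical GFP-negative libraries, against 7023 to 12418 CPM in medullary GFP-positive and 5996 to 9536 CPM in medullary GFP-negative libraries. Pnmt, which makes adrenaline, had no count in either cortical group. Nes itself had 35.3 to 50.9 CPM in cortical GFP-positive and 4.59 to 7.44 CPM in cortical GFP-negative libraries. In the medulla it had 69.2 to 178 CPM in GFP-positive and 16.1 to 26.1 CPM in GFP-negative libraries. The tissues labelled medulla thus also held RNA of cortical enzymes, and what share of their cells came from the cortex was not measured.

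Markers of other cells moved with the gates. All 12 macrophage markers were lower in GFP-positive cells in both tissues by edgeR's quasi-likelihood test. Their summed level was 60.9 to 317 CPM in cortical GFP-positive against 3950 to 5865 CPM in cortical GFP-negative libraries, and 459 to 1356 CPM in medullary GFP-positive against 21872 to 22503 CPM in medullary GFP-negative libraries. Schwann cell and glia markers (10 genes) summed to 200 to 295 CPM in cortical GFP-positive against 4.17 to 12.2 CPM in cortical GFP-negative libraries, and to 2001 to 4740 CPM in medullary GFP-positive against 19.7 to 28.1 CPM in medullary GFP-negative libraries, where Sox10 and Foxd3 had no count. Of 8 pericyte and smooth muscle markers, 5 rose and 0 fell in the cortex, where they summed to 59.9 to 226 CPM in GFP-positive against 1.61 to 5.95 CPM in GFP-negative libraries. In the medulla 2 rose and 0 fell, and the sums were 112 to 275 CPM in GFP-positive against 127 to 143 CPM in GFP-negative libraries. Over all genes tested, 7.14% rose and 7.59% fell in the cortex, and 10.2% rose and 11.1% fell in the medulla. Cortical GFP-positive library 1 stood apart in erythroid markers, at 812 CPM for 6 genes against at most 1.86 CPM in any other library. The part of these cells in the results on the 10 genes was not tested. Macrophage markers were lower, and glial markers higher, in the same gate in which some of the 10 genes were higher and others lower.

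**Figure D1:**
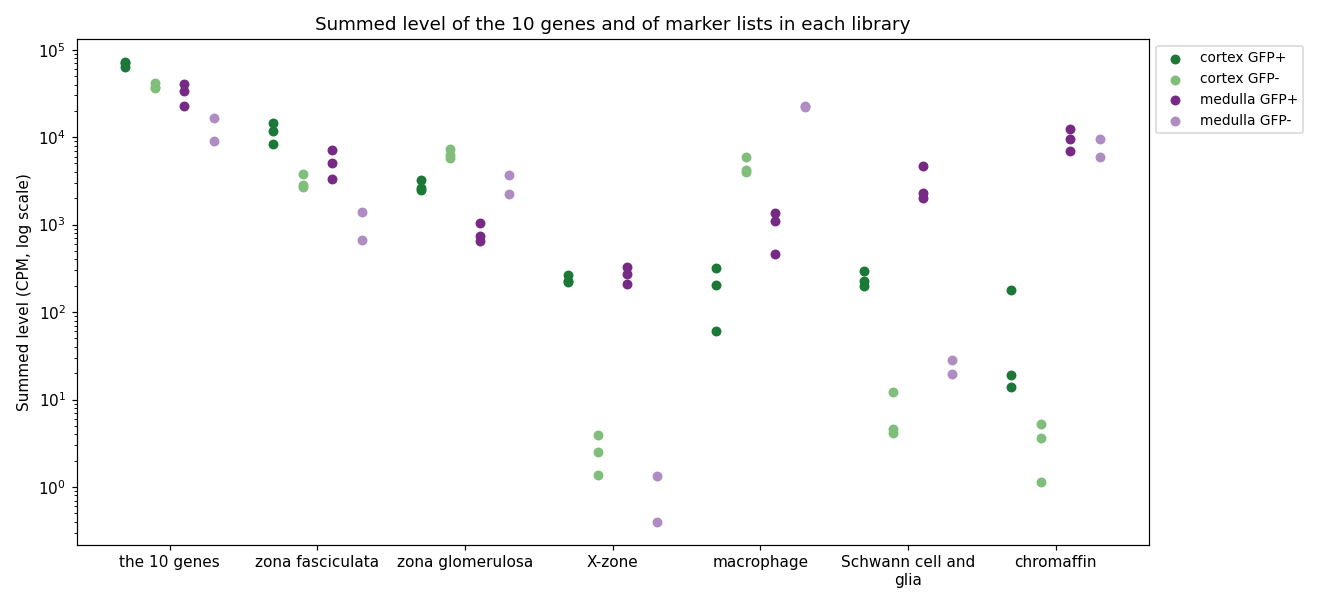
Summed level (CPM, log scale) of the 10 genes and of marker lists in each of the 11 libraries, by group. Each point is 1 library. The 10 genes summed to 63597 to 72644 CPM in cortical GFP-positive libraries, above every other group, while macrophage markers peaked in medullary GFP-negative libraries and glial markers in medullary GFP-positive libraries.

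In the cortex, the GFP-positive cells held more RNA of Star, Cyp11b1 and Fdx1 and less of Cyp11b2 than the GFP-negative cells, while Cyp21a1 and Por were at close levels in both. Of the 10 genes, 3 rose and 1 fell at an adjusted p under 0.05 in edgeR's quasi-likelihood test across all genes. Of all genes tested, 7.14% were called higher and 7.59% lower in this comparison. The groups did not overlap for 6 genes that were higher and 1 that was lower, and over all genes tested 18.8% were higher and 19.4% lower without overlap. The median log2 change of the 10 genes was 0.44, against 0.03 over all genes tested.

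Star (chr8:25806555-25815982), which delivers cholesterol to the inner mitochondrial membrane, had 17986, 22975 and 17727 CPM in cortical GFP-positive libraries 1 to 3, against 5693, 6892 and 5752 CPM in cortical GFP-negative libraries. Every GFP-positive library was far above every GFP-negative one. The fitted log2 change was 1.68 (SE 0.303), or 3.20-fold, with an edgeR adjusted p of 0.0050. Within ages, the log2 change was 1.70 in the libraries of the older mice (2 per gate) and 1.62 in those of the younger (1 per gate).

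Cyp11a1 (chr9:58006411-58027023) encodes the side-chain cleavage enzyme, the first step of all steroid synthesis. It had 10782, 8601 and 6806 CPM in cortical GFP-positive libraries against 5164, 4806 and 4384 CPM in cortical GFP-negative libraries. The groups did not overlap, and in each gate library 1 was highest and library 3 lowest. The log2 change was 0.87 (SE 0.278) and missed the threshold at an edgeR adjusted p of 0.0630. It passed in 9 of 19 alternatives, over which the adjusted p ran between 0.0078 and 0.171.

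Fdx1 (chr9:51943306-51963556) encodes ferredoxin, the carrier that hands electrons to the mitochondrial P450 enzymes. It had 5833, 5417 and 3498 CPM in cortical GFP-positive libraries against 1533, 1600 and 1543 CPM in cortical GFP-negative libraries. The GFP-negative libraries were nearly level, and GFP-positive library 3, from the younger mice, was lower than the other two of its gate but still above all GFP-negative ones. Fdx1 rose by 1.66 on the log2 scale (SE 0.286), or 3.15-fold, with an edgeR adjusted p of 0.0039. The log2 change was 1.84 within the older and 1.181 within the younger mice.

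Fdxr (chr11:115268024-115277050) encodes the reductase that loads ferredoxin with electrons from NADPH. It had 907, 892 and 945 CPM in cortical GFP-positive libraries against 682, 660 and 753 CPM in cortical GFP-negative libraries. The groups did not overlap, but the log2 change of 0.39 (SE 0.214) was not called, at an edgeR adjusted p of 0.258. It was called in 1 of 19 alternatives, the fit to these 2 groups alone (0.40, edgeR adjusted p of 0.0157), with adjusted p up to 0.430 in the others. Reductase and carrier therefore had unlike values in one comparison, 1.66 for Fdx1 and 0.39 for Fdxr, a contrast between genes that was not tested. Fdx1 averaged 1584 CPM per kb of exon in cortical GFP-positive and 502 CPM per kb in cortical GFP-negative libraries, where Fdxr averaged 326 and 249 CPM per kb.

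Hsd3b1 (chr3:98852194-98859794) encodes the 3-beta-hydroxysteroid dehydrogenase that turns pregnenolone into progesterone. It had 25687, 22704 and 23614 CPM in cortical GFP-positive libraries against 20100, 15812 and 15567 CPM in cortical GFP-negative libraries. The groups came close without overlapping, and the log2 change of 0.48 (SE 0.230) was not called, at an edgeR adjusted p of 0.190. With a fit to these 2 groups alone Hsd3b1 passed, at an edgeR adjusted p of 0.0184, and over its 19 alternatives the adjusted p ran up to 0.375.

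Hsd3b6 (chr3:98805504-98814443) encodes the isoform that in the mouse is found in the zona glomerulosa. It had 647, 238 and 152 CPM in cortical GFP-positive libraries against 630, 440 and 413 CPM in cortical GFP-negative libraries. The groups overlapped because GFP-positive library 1 was as high as the highest GFP-negative one, while GFP-positive libraries 2 and 3 were below all of them. The log2 change was -0.52 (SE 0.523), at an edgeR adjusted p of 0.556. It was -0.43 within the older and -1.45 within the younger mice, neither tested.

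Cyp21a1 (chr17:34801348-34804561) encodes the 21-hydroxylase of the endoplasmic reticulum, which both zones need. It had 4606, 4722 and 4893 CPM in cortical GFP-positive libraries against 5052, 4659 and 5470 CPM in cortical GFP-negative libraries. The ranges overlapped, with a log2 change of -0.09 (SE 0.287) and an edgeR adjusted p of 0.873. Por (chr5:135670033-135735326), whose product gives Cyp21a1 its electrons, had 232, 200 and 229 CPM in cortical GFP-positive against 216, 213 and 217 CPM in cortical GFP-negative libraries. Its log2 change was 0.03 (SE 0.225; edgeR adjusted p of 0.954). Scaling by total counts moved all genes of this comparison by -0.10 on the log2 scale, and Por then had -0.07. Neither Cyp21a1 nor Por was called at this precision, which does not show that their levels were equal.

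Cyp11b1 (chr15:74834125-74841643) encodes 11-beta-hydroxylase, the last step to corticosterone and a marker of the zona fasciculata. It had 5862, 4950 and 5668 CPM in cortical GFP-positive libraries against 1313, 1384 and 1519 CPM in cortical GFP-negative libraries. The libraries of each gate lay close together and the gates far apart. Cyp11b1 rose by 1.97 on the log2 scale (SE 0.176), or 3.91-fold, with an edgeR adjusted p of 0.00016. The log2 change was 2.00 within the older and 1.90 within the younger mice.

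Cyp11b2 (chr15:74851010-74856318) encodes aldosterone synthase, the enzyme that defines hormone output of the zona glomerulosa. It had 103, 62.5 and 65.7 CPM in cortical GFP-positive libraries against 1395, 958 and 1197 CPM in cortical GFP-negative libraries. Every GFP-positive library was many times lower than every GFP-negative one. Cyp11b2 fell by 3.94 on the log2 scale (SE 0.517), or 15.4-fold, with an edgeR adjusted p of 0.00097. It was -3.85 within the older and -4.19 within the younger mice, so the neighbouring paralogs moved in opposite directions in both. Without cortical GFP-positive library 1, which stood apart in erythroid markers, the log2 changes were 1.73 for Star, 1.51 for Fdx1, 1.91 for Cyp11b1 and -4.22 for Cyp11b2, with edgeR adjusted p between 0.00095 and 0.0140. Hsd3b6 then had -1.36 at an edgeR adjusted p of 0.0775.

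**Figure D2:**
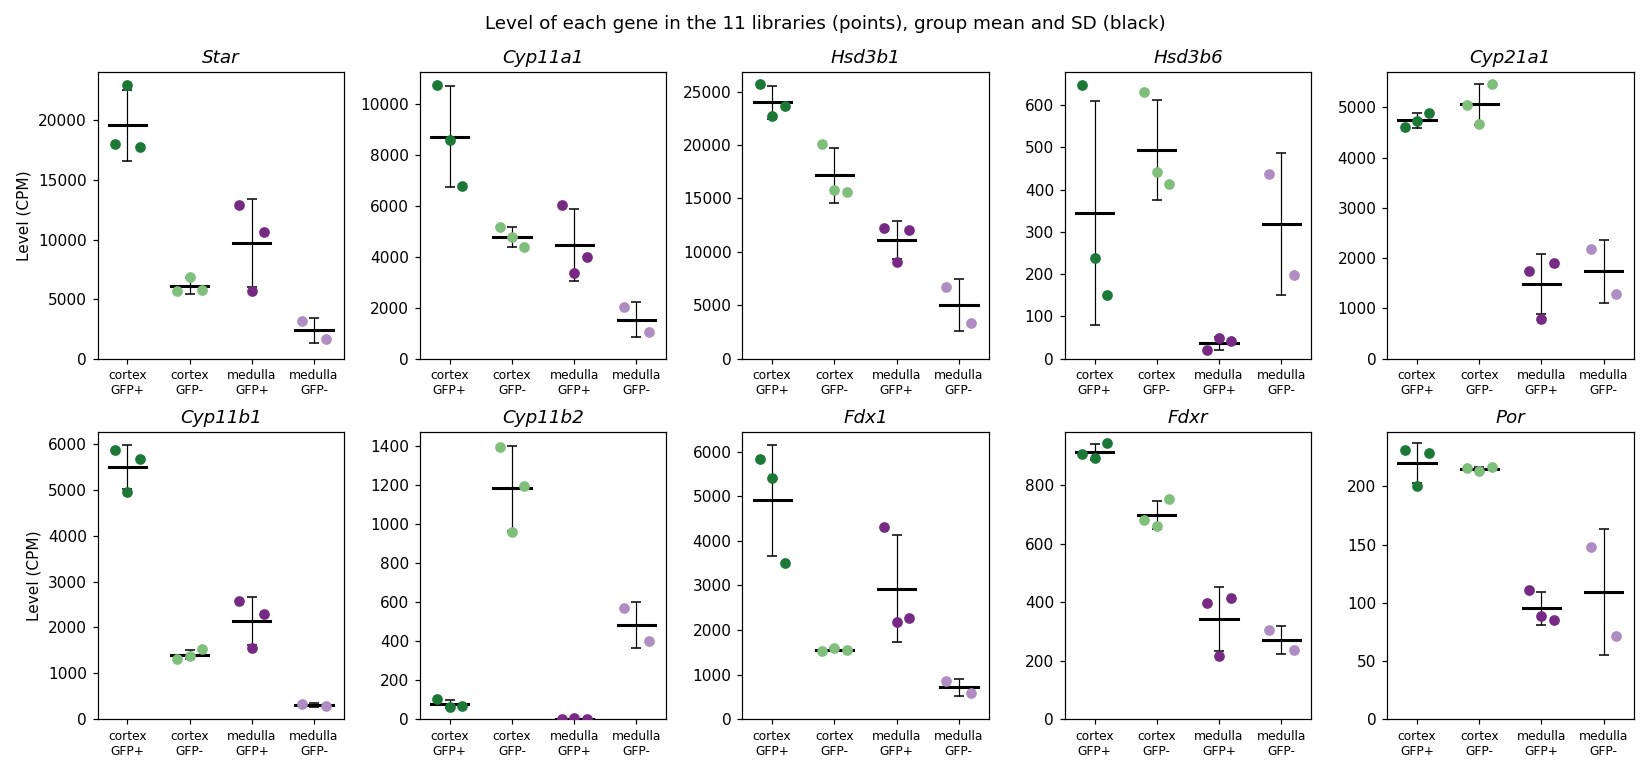
Level (CPM) of each of the 10 genes in every library (points), with the group mean (bar) and SD (whiskers), for n = 3, 3, 3 and 2 libraries in the order shown on the axis. Cyp11b1 lay at 4950 to 5862 CPM in cortical GFP-positive and at 1313 to 1519 CPM in cortical GFP-negative libraries, and Cyp11b2 showed the opposite order.

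Because Cyp11b1 and Cyp11b2 were counted in the same library, their ratio does not depend on its depth. Cyp11b1 made up 98.3%, 98.8% and 98.9% of the counts of the pair in cortical GFP-positive libraries. It made up 48.5%, 59.1% and 55.9% in cortical GFP-negative libraries. The exact 95% binomial (Clopper-Pearson) intervals, which cover counting error only since amplified reads with no molecular identifier may copy 1 molecule, were narrow, 98.2% to 98.3% in the first GFP-positive library and 48.1% to 48.9% in the first GFP-negative one. The means were 98.6% ± 0.308 and 54.5% ± 5.44 (SD, n = 3 each), with no overlap. The difference of 44.1 percentage points had an exact two-sided permutation p of 0.1, the smallest possible.

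In the medulla, which was described without a test, Cyp11b1 made up 99.99%, 99.8% and 99.97% of the pair in GFP-positive libraries and 37.1% and 41.6% in GFP-negative libraries. Counts favour the longer gene, and Cyp11b1 has 3165 exon bases against 1625 for Cyp11b2. Per kb, Cyp11b1 made up 96.7% to 97.8% of the pair in cortical GFP-positive and 32.6% to 42.6% in cortical GFP-negative libraries. By this measure Cyp11b2 was ahead in each GFP-negative library of the cortex. By counts, Cyp11b1 was ahead in GFP-negative libraries 2 and 3 of the cortex, at 59.1% and 55.9%. The exon lengths do not allow for stretches shared with other genes, so the order in these libraries depends on the length used. Cyp11b2 was also ahead in both GFP-negative libraries of the medulla, where Cyp11b1 made up 23.2% and 26.7% per kb.

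The Hsd3b pair showed a smaller contrast. Hsd3b1 made up 97.5%, 99.0% and 99.4% of Hsd3b1 plus Hsd3b6 counts in cortical GFP-positive libraries, against 97.0%, 97.3% and 97.4% in cortical GFP-negative libraries. The groups did not overlap, although the lowest GFP-positive library stood just above the highest GFP-negative one. The difference of 1.40 percentage points again had an exact two-sided permutation p of 0.1. In the medulla Hsd3b1 made up 99.8%, 99.5% and 99.7% in GFP-positive libraries and 93.9% and 94.3% in GFP-negative libraries. Hsd3b6 thus took its largest share of the pair in medullary GFP-negative cells and its smallest in medullary GFP-positive cells.

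**Figure D3:**
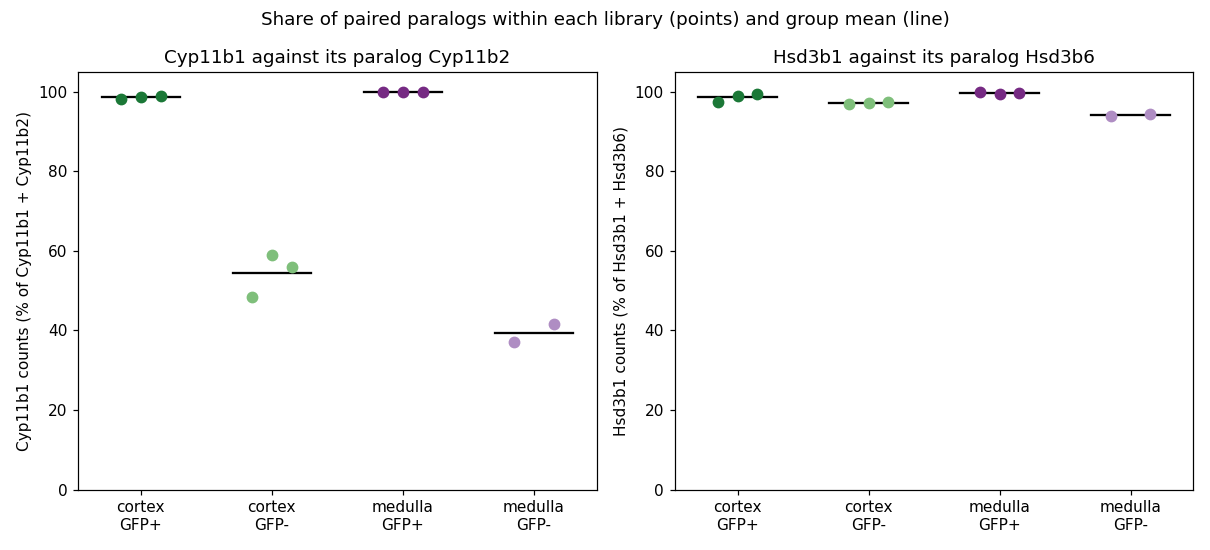
Share of Cyp11b1 in the counts of Cyp11b1 plus Cyp11b2 (left, %) and of Hsd3b1 in Hsd3b1 plus Hsd3b6 (right, %) in each library (points), with the group mean (line). Cyp11b1 was at or above 98.3% in all GFP-positive libraries and between 37.1% and 59.1% in all GFP-negative ones, whereas Hsd3b1 stayed above 93.9% throughout.

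In the medulla, the gate comparison had the same directions for the genes that were called in the cortex, and more of the 10 genes were called. Of the 10, 5 rose (Star, Cyp11a1, Hsd3b1, Cyp11b1 and Fdx1) and 2 fell (Hsd3b6 and Cyp11b2) by edgeR's quasi-likelihood test. Of all genes tested, 10.2% were called higher and 11.1% lower. The same 5 and 2 genes had groups that did not overlap, as 25.6% of all genes did in the higher and 22.5% in the lower direction. The median log2 change of the 10 genes was 0.74, against 0.09 over all genes tested. The called genes did not share a direction: those of the zona glomerulosa were the ones that fell.

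Star had 12883, 5683 and 10632 CPM in medullary GFP-positive libraries against 3138 and 1650 CPM in medullary GFP-negative libraries, and rose by 2.02 on the log2 scale (SE 0.357; edgeR adjusted p of 0.0030). GFP-positive library 2 was the lowest of its group and still above both GFP-negative ones. Cyp11b1 had 2566, 1558 and 2290 CPM in medullary GFP-positive against 335 and 284 CPM in medullary GFP-negative libraries. It rose by 2.79 (SE 0.214), or 6.91-fold, at an edgeR adjusted p of 4.4e-05. Fdx1 had 4318, 2190 and 2272 CPM against 849 and 578 CPM in GFP-negative libraries, a log2 change of 2.04 (SE 0.337; edgeR adjusted p of 0.0021). As in the cortex, the cholesterol carrier, the electron carrier and the last enzyme of corticosterone synthesis were all higher in the GFP-positive libraries.

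Cyp11a1 had 6064, 3368 and 4000 CPM in medullary GFP-positive libraries against 2032 and 1048 CPM in medullary GFP-negative libraries. The log2 change was 1.54 (SE 0.326; edgeR adjusted p of 0.0077), and the call was lost without GFP-negative library 2, with 1.13 and an edgeR adjusted p of 0.0575. Hsd3b1 had 12255, 9021 and 12055 CPM against 6736 and 3309 CPM in GFP-negative libraries. Its log2 change was 1.15 (SE 0.266; edgeR adjusted p of 0.0123), and with a fit to these 2 groups alone the adjusted p was 0.0733. In both genes GFP-negative library 2 was the lower of its group, and no GFP-negative library reached a GFP-positive one.

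Cyp11b2 had 7, 83 and 12 counts in medullary GFP-positive libraries, or 0.361, 2.89 and 0.627 CPM, against 568 and 399 CPM in medullary GFP-negative libraries. All 3 GFP-positive libraries were above the floor of 3 counts, though libraries 1 and 3 had few. Cyp11b2 fell by 8.44 on the log2 scale (SE 0.667), or 348-fold, with an edgeR adjusted p of 4.7e-05. Hsd3b6 had 19.7, 48.3 and 42.0 CPM in GFP-positive against 436 and 199 CPM in GFP-negative libraries and fell by 3.11 (SE 0.597), or 8.66-fold, with an edgeR adjusted p of 0.0046. Both genes that mark the zona glomerulosa were thus lowest, of the 4 groups, in medullary GFP-positive cells.

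Cyp21a1 had 1748, 798 and 1912 CPM in medullary GFP-positive libraries against 2187 and 1297 CPM in medullary GFP-negative libraries. Fdxr had 396, 217 and 414 CPM against 305 and 235 CPM in GFP-negative libraries, and Por had 111, 88.9 and 85.2 CPM against 148 and 71.2 CPM. All 3 overlapped between gates. Their log2 changes were -0.23 (SE 0.319) for Cyp21a1, 0.34 (SE 0.242) for Fdxr and -0.20 (SE 0.251) for Por, with edgeR adjusted p of 0.669, 0.362 and 0.622. Cyp21a1 turned positive, at 0.07 without GFP-positive library 2 and 0.20 without GFP-negative library 1, and Por had 0.42 without GFP-negative library 1. Fdxr was called in 1 of 19 alternatives, at 0.59 without GFP-positive library 2 (edgeR adjusted p of 0.0210), and Por in 1 of 19, at -0.64 without GFP-negative library 2 (edgeR adjusted p of 0.0359). Over all alternatives their adjusted p ran up to 0.776 for Fdxr and 0.806 for Por.

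**Figure D4:**
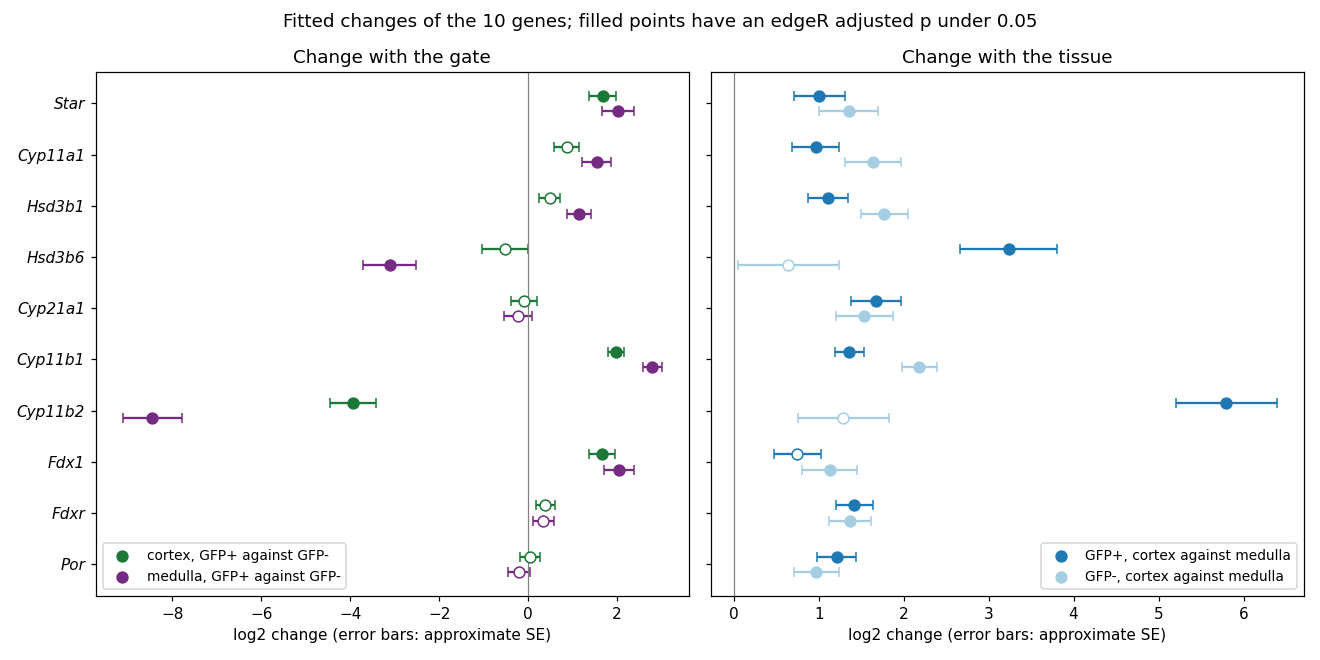
Fitted log2 change of the 10 genes with the gate (left; GFP-positive over GFP-negative, in each tissue) and with the tissue (right; cortex over medulla, in each gate), with approximate SE as error bars. Filled points have an edgeR adjusted p under 0.05. Star, Cyp11b1 and Fdx1 lie to the right and Cyp11b2 to the left in both tissues, while every gene lies to the right of 0 on the tissue side.

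Whether the gate effect differed between tissues was tested directly with the interaction. It was called for 1 of the 10 genes, Cyp11b2, and for 1.61% of all genes tested (0.857% in the positive and 0.756% in the negative direction). The log2 difference of the gate effects was 4.50 (SE 0.742; edgeR adjusted p of 0.0261), because the fall with GFP was larger in the medulla. The call was lost under 6 of 18 alternatives, over which the adjusted p ran between 0.00073 and 0.0638. They were the replicate block, age as a covariate, and leaving out any cortical GFP-negative library or medullary GFP-negative library 2. The difference stayed between 4.09 and 5.98 on the log2 scale. Hsd3b6 had 2.60 (edgeR adjusted p of 0.133) and Cyp11b1 had -0.82 (edgeR adjusted p of 0.145), neither called. At equal age in the medulla, GFP-positive library 1, from older mice, had 7 counts of Cyp11b2, against 15541 and 9822 counts in the GFP-negative libraries, both from older mice as well.

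Between tissues, the cortex held more of nearly all 10 genes, in either gate. Among GFP-positive cells 9 of the 10 were higher in the cortex and none lower by edgeR's quasi-likelihood test, while 6.04% of all genes tested were called higher and 9.45% lower. Among GFP-negative cells 8 were higher and none lower, with 8.06% and 10.6% of all genes called. Groups did not overlap for 9 of the 10 genes among GFP-positive cells, as for 16% of all genes in that direction, and likewise for 9 among GFP-negative cells, against 23.4% of all genes. The median log2 change of the 10 genes was 1.29 in GFP-positive and 1.36 in GFP-negative cells, against -0.03 and -0.02 over all genes tested.

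Among GFP-positive cells, Cyp11b2 was 55.5-fold and Hsd3b6 9.41-fold higher in cortex than in medulla, log2 changes of 5.79 (SE 0.595) and 3.23 (SE 0.571), with edgeR adjusted p of 0.00034 and 0.0048. Their libraries did not overlap: the lowest cortical level was 62.5 CPM for Cyp11b2 and 152 CPM for Hsd3b6, and the highest medullary one 2.89 and 48.3 CPM. Cyp21a1 was 3.19-fold, Fdxr 2.67-fold, Cyp11b1 2.57-fold and Por 2.32-fold higher, also without overlap. Star had 1.01 (SE 0.298; edgeR adjusted p of 0.0461) and Cyp11a1 0.96 (SE 0.278; edgeR adjusted p of 0.0420), and these calls were fragile. Star passed in 6 and Cyp11a1 in 10 of 19 alternatives, with adjusted p up to 0.117 and 0.135. Fdx1 was not called, at 0.75 (SE 0.280; edgeR adjusted p of 0.103), and its groups overlapped, as medullary library 1 exceeded cortical library 3.

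Among GFP-negative cells, Cyp11b1 was 4.54-fold and Hsd3b1 3.42-fold higher in cortex than in medulla, with edgeR adjusted p of 0.00038 and 0.0027. Cyp11a1 was 3.11-fold, Cyp21a1 2.90-fold, Fdxr 2.58-fold, Star 2.55-fold, Fdx1 2.18-fold and Por 1.96-fold higher. The genes of the zona glomerulosa were the 2 that were not called, with log2 changes of 1.29 (SE 0.536; edgeR adjusted p of 0.121) for Cyp11b2 and 0.64 (SE 0.594; edgeR adjusted p of 0.498) for Hsd3b6. The count rests on the medullary libraries: without medullary GFP-negative library 2, the lower of the 2 for all 10 genes, 2 genes (Hsd3b1 and Cyp11b1) were called. Without cortical GFP-negative library 1 or library 2, 5 were.

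Levels between genes are comparable only per length. Hsd3b1 was highest per kb in each group, at 12939 CPM per kb in cortical GFP-positive, 9250 in cortical GFP-negative, 5989 in medullary GFP-positive and 2708 in medullary GFP-negative cells. In cortical GFP-positive cells Star came next, at 4756 ± 719 CPM per kb (SD, n = 3), followed by Cyp21a1, Cyp11a1, Cyp11b1 and Fdx1 at 2215 to 1584 CPM per kb, whose neighbours overlapped in range. Fdxr (326), Hsd3b6 (192), Por (54.7) and Cyp11b2 (47.4 CPM per kb) came last, and the first pair and the last pair of these overlapped.

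In cortical GFP-negative cells the order was different. Cyp21a1 stood second, at 2365 ± 189 CPM per kb (SD, n = 3), above Star at 1486 ± 164, and Cyp11b2, at 728 ± 135, stood above Fdx1 at 502 ± 11.7 and Cyp11b1 at 444 ± 33.1. No neighbours overlapped in range there but Hsd3b6 and Fdxr, at 275 and 249 CPM per kb. In medullary GFP-positive cells Star, Fdx1, Cyp11a1, Cyp21a1 and Cyp11b1 formed a run of overlapping ranges between 2366 and 675 CPM per kb, and Cyp11b2 came last at 0.795. In medullary GFP-negative cells, with 2 libraries, Cyp21a1 to Hsd3b6 overlapped from neighbour to neighbour, between 814 and 176 CPM per kb.

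Within the summed CPM of the 10 genes, Star had a larger share in GFP-positive cells and Cyp21a1 in GFP-negative cells. Star made up 28.4% ± 3.88 of the summed CPM in cortical GFP-positive and 15.9% ± 2.41 in cortical GFP-negative libraries (SD, n = 3 each), and 29.4% ± 4.04 in medullary GFP-positive (n = 3) and 18.5% ± 0.395 in medullary GFP-negative libraries (n = 2). Cyp21a1 made up 6.90% ± 0.705 in cortical GFP-positive and 13.1% ± 1.50 in cortical GFP-negative libraries, and 4.49% ± 1.11 in medullary GFP-positive and 13.7% ± 0.873 in medullary GFP-negative libraries. Neither gene's gates overlapped in either tissue. Hsd3b1 also had a smaller share in cortical GFP-positive libraries, at 34.9% ± 2.56 against 44.2% ± 3.37 in cortical GFP-negative ones, without overlap. Its medullary gates overlapped. Cyp11a1 had close shares in the groups, at 12.6% ± 2.10 in cortical GFP-positive, 12.4% ± 0.467 in cortical GFP-negative, 13.9% ± 1.73 in medullary GFP-positive and 11.8% ± 0.418 in medullary GFP-negative libraries. These shares were described without a test. They are parts of a fixed whole, so a share can fall while the level of its gene does not.

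**Figure D5:**
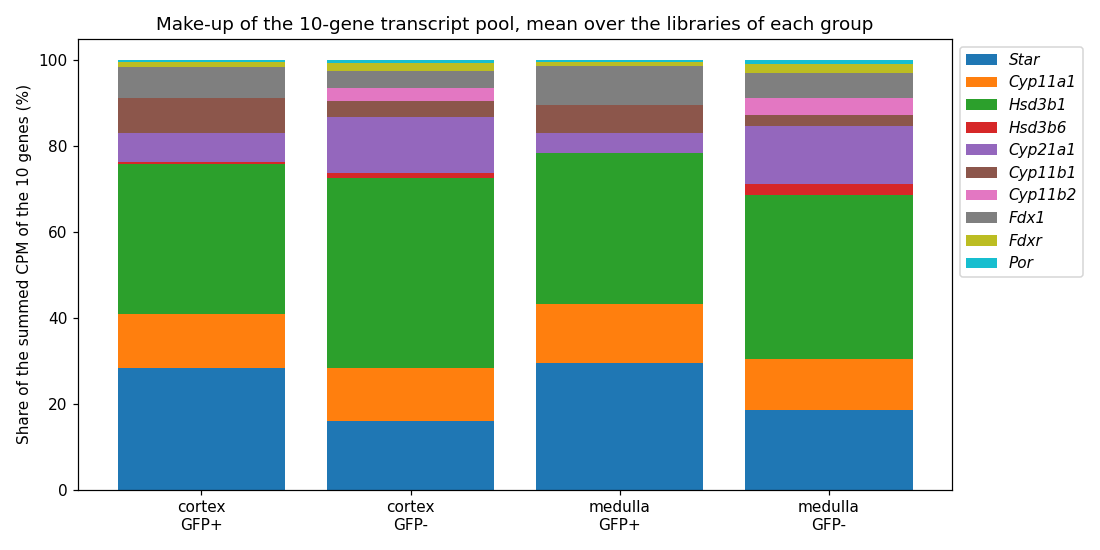
Share of each gene in the summed CPM of the 10 genes (%), as the mean over the libraries of each group. Star held 28.4% in cortical GFP-positive and 15.9% in cortical GFP-negative libraries, Cyp21a1 6.90% and 13.1%, and Cyp11b2 was visible in the GFP-negative groups, at 3.05% in the cortex and 3.90% in the medulla. Bars are counts scaled by library size, not by gene length.

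The 10 genes were set beside markers of the cortical zones. Of 9 zona glomerulosa markers, 6 fell and none rose with GFP in the cortex, and 8 fell and none rose in the medulla, by edgeR's quasi-likelihood test. Over all genes tested, 7.59% fell and 7.14% rose in the cortex, and 11.1% fell and 10.2% rose in the medulla. In the cortex Agtr1b, an angiotensin II receptor, averaged 11.9 ± 5.22 CPM in GFP-positive and 214 ± 60.7 CPM in GFP-negative cells (SD, n = 3 each; log2 change -4.16). Dab2 had 697 ± 36.1 CPM against 3319 ± 337 CPM (-2.25), Vsnl1 26.1 ± 8.17 CPM against 276 ± 43.2 CPM (-3.40), and Wnt4 75.3 ± 37.2 CPM against 253 ± 52.5 CPM (-1.75). Their direction was that of Cyp11b2. Not all of the list fell: its highest log2 change was 0.45 in the cortex and 0.40 in the medulla, not called.

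Of 4 zona fasciculata markers, 2 rose and 1 fell in each tissue. Over all genes tested, 7.14% rose and 7.59% fell in the cortex, and 10.2% rose and 11.1% fell in the medulla. In the cortex Abcb1b, a drug and steroid transporter, had 2941 ± 271 CPM in GFP-positive and 39.0 ± 5.75 CPM in GFP-negative cells (SD, n = 3 each; log2 change 6.24), and Mrap, the accessory protein of the ACTH receptor, had 393 ± 115 CPM against 97.1 ± 30.5 CPM (2.02). The receptor itself, Mc2r, went the other way, at 226 ± 36.4 CPM in GFP-positive and 492 ± 42.2 CPM in GFP-negative cells (-1.12), and Akr1b7 was not called (1.70; edgeR adjusted p of 0.0850). The receptor and its accessory protein thus differed in direction. Of the X-zone list, Sbsn had 238 ± 25.5 CPM against 1.88 ± 1.32 CPM (6.98), whereas Akr1c18 and Pik3c2g, the usual markers of that zone, averaged at most 0.891 CPM in any group.

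Genes that carry electrons or supply NADPH beside Fdx1, Fdxr and Por moved in both directions. Of 15 tested, 4 rose and 5 fell with GFP in the cortex, and 5 rose and 7 fell in the medulla. Over all genes tested, 7.14% rose and 7.59% fell in the cortex, and 10.2% rose and 11.1% fell in the medulla. Idh1 and Me1, cytosolic sources of NADPH, rose in the cortex by 1.84 (SE 0.258) and 1.72 (SE 0.253) on the log2 scale, and in the medulla by 2.28 (SE 0.307) and 2.32 (SE 0.302). Nnt, the mitochondrial transhydrogenase that also makes NADPH, fell in the cortex by 0.77 (SE 0.160) and in the medulla by 0.82 (SE 0.176), and mitochondrial Idh2 by 0.59 (SE 0.154) and 0.81 (SE 0.170). G6pdx and Pgd, which also make NADPH in the cytosol, were not called in the cortex. They had -0.19 (SE 0.177; edgeR adjusted p of 0.511) and -0.10 (SE 0.129; edgeR adjusted p of 0.648). Their gate effects were higher in the cortex than in the medulla by 0.59 and 0.82, differences that were not called (edgeR adjusted p of 0.300 and 0.0666). The median log2 change of the list was 0.32 in the cortex and -0.13 in the medulla, against 0.03 and 0.09 over all genes tested.

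Of 14 genes of cholesterol delivery, 5 rose and 3 fell with GFP in the cortex, and 3 rose and 3 fell in the medulla. The shares of all genes tested that rose and fell were 7.14% and 7.59% in the cortex, and 10.2% and 11.1% in the medulla. Scarb1, the receptor for high-density lipoprotein, which feeds most cholesterol to rodent adrenal cells, had 2330 ± 543 CPM in cortical GFP-positive and 812 ± 22.3 CPM in cortical GFP-negative cells (SD, n = 3 each; log2 change 1.52). Dbi, which binds acyl-CoA and the mitochondrial protein Tspo, had 1175 ± 115 CPM against 533 ± 29.9 CPM (1.14), and Npc2, which exports cholesterol from lysosomes, had 207 ± 22.5 CPM against 459 ± 49.0 CPM (-1.15). The medians of this list were 0.44 in the cortex and 0.07 in the medulla.

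Of 15 regulators, Mrap and Mc2r among them, 4 rose and 2 fell in each tissue. The shares of all genes tested that rose and fell were 7.14% and 7.59% in the cortex, and 10.2% and 11.1% in the medulla. Nr5a1, the nuclear receptor SF-1 that drives steroid enzyme genes, had 226 to 381 CPM in cortical GFP-positive and 243 to 361 CPM in cortical GFP-negative libraries, a log2 change of 0.10 (SE 0.336; edgeR adjusted p of 0.892). Nr0b1 (DAX-1), a repressor that binds SF-1, fell by 2.67 in the cortex (SE 0.541), to 3.45 ± 1.94 CPM in GFP-positive against 21.9 ± 7.67 CPM in GFP-negative cells. Across the 3 medullary GFP-positive libraries it had 1 count in all, against 381 counts in the 2 GFP-negative ones. Prkaca, the catalytic subunit of the kinase downstream of the ACTH receptor, rose in the cortex by 1.22 (SE 0.171).

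Genes most like 3 of the 10 were found by the root-mean-square difference of log2 CPM over the 11 libraries, each gene centred on its own mean, among 10079 genes. Smaller is more alike, and the points share library and gate. For Star they were Me1 (0.189), Hao2 (0.237), C2 (0.249), Prss35 (0.251) and Dhcr7 (0.266), the last an enzyme of cholesterol synthesis. For Cyp11b1 they were Prss35 (0.276), Wnt5a (0.367), Akr1b8 (0.397), Me1 (0.417) and Hao2 (0.423). For Cyp11b2 they were Agtr1b (0.519), 1500015O10Rik (1.17), Sphkap (1.20), Cpb1 (1.21) and Vsnl1 (1.34). The measure grows with the range of a gene, and Cyp11b2 ran between 0.361 and 1395 CPM. Its distances therefore cannot be ranked against those of Star or Cyp11b1. Among the 10 genes, Fdx1 was nearest to Star (0.297), ahead of Cyp11a1 (0.416) and Cyp11b1 (0.431), and Hsd3b6 was nearest to Cyp11b2, at 2.63.

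The authors' deposited table gave log2 fold changes close to the fitted ones, with p-values whose pattern is that of a test for changes larger than 1 on the log2 scale, since they equal 1 wherever the change was smaller. By the authors' deposited table the adjusted p was under 0.05 in the cortex for Cyp11b1 (4.2e-05) and Cyp11b2 (0.0016), while Star had 0.586 and Fdx1 0.621 at log2 fold changes of 1.64 and 1.62. In the medulla the authors' deposited table had Cyp11b1 at 2.7e-14, Cyp11b2 at 2.8e-18, Hsd3b6 at 0.0028 and Fdx1 at 0.0371, with Star at 0.0685. Between GFP-positive cells of the tissues the authors' deposited table had Hsd3b6 at 0.0011 and Cyp11b2 at 2.4e-08. Cyp11b1 and Cyp11b2 passed by these deposited values in both tissues, and Star in neither.

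RefSeq promoter windows on GRCm38.p6 (250 bases before to 50 after a start) were matched for 6 of the 10 genes, and Star, Cyp21a1, Cyp11b1 and Cyp11b2 were not matched. On either strand, none of these windows held AAGGTCA, a site letter pattern of SF-1, found in 4.72% of 32851 windows, or AAGGCCA, found in 6.20%. One Cyp11a1 window, chr9:57997774-57998073, held TGACG, part of the cyclic AMP response element, as 20.8% of all windows did. It lies before the gene span given above. The Cyp11a1 window inside that span, chr9:58014702-58015001, did not hold it.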

How the data were processed

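The authors deposited raw whole-number read counts of the 11 libraries by gene, and per the file headers each gene's length in bases as another column. Tools named by the submitters' processing notes, with no role given, are featureCounts 1.6.0, GSNAP, DESeq2 1.18.1, DESeq and bcl2fastq 2.19.1, on mm10. In addition the authors deposited 3 comparison tables with log2 fold changes and adjusted p-values, which were only quoted. Their 17 normalized per-library columns and 6 group means were not used. External spike-ins (92, with 10 counts) were left out.

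The 10 genes and the gene lists were chosen with earlier results of these data known. CPM used TMM-scaled library sizes, and CPM per kb the deposited length. The test was edgeR's quasi-likelihood test (version 4.0.16, R 4.3.3; filterByExpr by group, TMM) in 1 fit of all 11 libraries (residual degrees of freedom 7, median prior 3.2, biological coefficient of variation 0.479). Benjamini-Hochberg adjustment ran over 20893 genes, at 0.05. SEs were taken as the log2 change over the root of F and are approximate. Shares were compared by exact permutation over libraries. A floor of 3 counts was 0.104 to 0.157 CPM per library. The steps were tested on simulated counts. Libraries of a group differed by more than sampling noise in every pair.

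All 10 genes are described. From most other lists at most 4 were named, by the size of the called change or a count of 0. Nr5a1, Idh2, Nnt, G6pdx, Pgd, Akr1b7, Akr1c18, Pik3c2g and Wnt4 were in part chosen after their values were seen. The most alike genes had at least 10 CPM on average. Alternatives were total-count and RLE scaling, DESeq2 1.42.0, limma voom 3.58.1, no filter on low counts, a replicate block, age as a covariate, the 2 groups alone and leaving out each library. Some genes of the lists are not reported here.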

Additional observations from a re-analysis of the deposited data

Results flagged for a closer look

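Cyp11b2 was the 1 gene of the 10 whose gate effect differed between tissues by a test of the difference itself. The effect (GFP-positive over GFP-negative) was -3.94 on the log2 scale in the cortex and -8.44 in the medulla, and the interaction was 4.502 with an edgeR adjusted p of 0.0261. The larger medullary fall goes with 7, 83 and 12 counts in the GFP-positive libraries of the medulla. Both medullary GFP-negative libraries came from older mice, and medullary GFP-positive library 1, also from older mice, had the 7 counts. With age as a covariate the edgeR adjusted p was 0.0614, in a range of 0.00073 to 0.0638 over the alternatives.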

How the results depend on the processing

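Over the 940 values of single genes under alternatives with a test, 855 kept their direction and side of the threshold, 46 lost and 25 gained a call, and 14 turned direction, the cause of which was not tested. The reversals were all of uncalled values. With total counts, cortical Por had -0.067, and in the interaction, where that scaling moved all genes by -0.17, Cyp21a1 had -0.050 and Fdxr -0.129. With 1 library left out, Por ran between -0.015 and 0.097 in the cortex and between -0.643 and 0.418 in the medulla, and medullary Cyp21a1 between -0.564 and 0.196. In the interaction Star ran between -0.884 and 0.049, Cyp21a1 between -0.292 and 0.467, Fdx1 between -0.686 and 0.011, Fdxr between -0.195 and 0.228 and Por between -0.387 and 0.673. With the 2 groups alone, 6 of the 10 genes rose in the cortex in place of 3. Per kb, the Cyp11b1 share differed by 59.2 points in place of 44.1, and without mitochondrial counts the 10 genes' share by 3.37 in place of 2.65. Leaving out 1 library gave 1959 to 3252 genes called in the cortex (3078 with all), 2956 to 4390 in the medulla (4461), 2006 to 3370 between GFP-positive cells (3236), 1411 to 4045 between GFP-negative cells (3892) and 56 to 489 in the interaction (337). Of the 10 genes it gave 3 to 5 higher in the cortex, 4 to 6 higher and 2 to 3 lower in the medulla, 7 to 10 higher between GFP-positive and 2 to 9 between GFP-negative cells, and 0 to 1 higher and 0 to 1 lower in the interaction. Where it left 1 medullary GFP-negative library, that library was assumed to vary like the other groups. The lowest counts came without cortical GFP-negative library 3, medullary GFP-negative library 2, medullary GFP-positive library 2 and, for the last 2 comparisons, medullary GFP-negative library 2. DESeq2 called 1559 genes in the interaction, with 2 of the 10 higher and 1 lower, age as a covariate 93 with 0, and the replicate block 176 with 0. Deviations of same-numbered libraries from their group means had correlations of -0.0085 to 0.078. Between the cortical gates they had 0.034 to 0.071, and differently numbered libraries had -0.054 to -0.0049. These values do not settle whether the numbers pair libraries, and the labels do not say. With the replicate block 2815 genes were called in the cortex and 3985 in the medulla, with 4 and 5 of the 10 higher. Depth limits Cyp11b2 in medullary GFP-positive cells, where 1 library had 7 counts.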

Other observations

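Among enzymes that act on steroids outside the core pathway, Srd5a2 differed most with the gate among those called in the cortex. Srd5a2, a 5-alpha-reductase, had 1567 ± 225 CPM in cortical GFP-positive and 12.8 ± 6.20 CPM in cortical GFP-negative cells (SD, n = 3 each), a log2 change of 6.94 (SE 0.904; edgeR adjusted p of 0.00095). In the medulla it had 1247 ± 568 CPM in GFP-positive (n = 3) and 14.7 ± 17.99 CPM in GFP-negative cells (n = 2), a log2 change of 6.41 (SE 1.06; edgeR adjusted p of 0.0021). Cyp27a1, a sterol 27-hydroxylase also abundant in macrophages, fell with GFP in the cortex by 4.01 (SE 0.354) and in the medulla by 4.39 (SE 0.365), beside the macrophage markers given above. Cyp17a1, which the mouse adrenal cortex lacks after birth, averaged 8.35 ± 8.24 CPM in cortical GFP-positive (n = 3), 0.254 ± 0.230 CPM in cortical GFP-negative (n = 3) and 0.278 ± 0.482 CPM in medullary GFP-positive cells (n = 3), and had no count in medullary GFP-negative cells. Its cortical groups overlapped, and the log2 change of 5.01 (SE 1.92) was not called (edgeR adjusted p of 0.115). Of 21 such enzymes tested, 2 rose and 3 fell with GFP in the cortex, and 5 rose and 3 fell in the medulla. Over all genes tested, 7.14% rose and 7.59% fell in the cortex, and 10.2% rose and 11.1% fell in the medulla.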
